A study of Mus musculus with 5 samples.

Results

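The cytosolic ribosomal protein genes encode the protein part of the ribosomes that translate nuclear messages. They were taken as genes named Rpl or Rps with a plain number, together with Rplp0, Rplp1, Rplp2 and Rpsa, read from probe sets that carry a single gene symbol. S6 kinases and like genes were left out, and Rplp1 is not analysed here. Of 18193 genes on the array, 43 met this rule, 22 of the large subunit and 21 of the small subunit. They had 95 probe sets, and the brightest one over the 5 arrays stood for each gene.

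Messenger RNA was profiled in mouse embryonic stem (ES) cells that had been grown on gelatin-coated plates and steered into a pancreatic fate. MPA, named here as the labels name it, was added at 2 µM to cells differentiated for 5 days. The 5 groups were cells with MPA for 1 day (day 6 MPA), cells with MPA for 3 days (day 8 MPA), and cells without MPA at day 5, day 6 and day 8 (the controls). Each group had 1 Affymetrix array hybridised with labelled RNA from the whole culture, so a difference between a pair of arrays carries no error between cultures and no test. The labels describe no strain, line or sex.

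Each ribosome has a small subunit, which holds the messenger RNA and reads its codons, and a large subunit, which joins the amino acids and lets the new chain out through a tunnel. One copy of almost every ribosomal protein goes into each ribosome, apart from the stalk proteins, and cells make the proteins in step with ribosomal RNA in the nucleolus. Vertebrate messages for these proteins begin with a terminal oligopyrimidine (TOP) stretch of C and T, through which mTOR signalling and the protein Larp1 control their translation. Ribosomal proteins that are made in excess can bind Mdm2 and thereby stabilise p53.

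All 5 arrays had been scaled to the same 2% trimmed mean of 500, and the total signal was lowest with MPA at day 6. A floor was set at the median of all probe sets, a signal of 86.8, and 42 of the 43 members lay above it on at least 1 array. Rps16, a protein of the small subunit head, lay under it on all 5 and is not described further. The other members formed 2 bands. In the first, 34 probe sets (17 of each subunit) had mean signals of 40945 or more and belonged to the brightest 2% on every array, outside the trimmed mean. In the second, 9 probe sets, Rps16 among them, had mean signals of 3960 or less, and none lay in between. A probe set's brightness depends on its probes, so the second band need not hold scarcer messages. Of the 34 bright probe sets, 30 have names that end in _s_at, _x_at or _a_at, which can bind more than 1 transcript, including the many processed pseudogenes of this family. The pancreatic fate described for these cultures was checked against markers. Of 6 pancreas markers on the array, 3 lay above the floor with MPA at day 6 and 5 with MPA at day 8, and in the controls 1 did at day 5, 1 at day 6 and 4 at day 8. Pdx1, the defining early pancreas factor, had a signal of 90.4 with MPA at day 8 and lay under the floor on the other arrays. With MPA at day 8, 5 of the 6 pancreas markers were higher than control and 1 was lower. Pdx1, Nkx6-1 and Ins2 were higher at signals near the floor, with 90.4, 103 and 123 on that MPA array. Among the higher ones, Gcg had 2572 with MPA and 271 in the control, and Neurog3 had 1295 with MPA and 193 in the control.

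The start of these genes is shown because its pyrimidine stretch is the feature the family is known by, and because the array data below show Rpl11 and Rps15 among the members furthest below control and Rps27 above it. Rpl7a is given for the longest run found among the members matched. Rpl22 is given for a run cut off at the edge of the stretch searched, so its C and T continue before the capitals. Each line is 30 bases around the longest unbroken run of C and T, in capitals. The search ran from 30 bases before to 50 after an annotated start of the gene (GRCm38.p6). Over all genes, that start was also the RefSeq gene start for 60.1% of plus strand and 60.7% of minus strand entries.
Rpl7a: cacaaTTCCCTCTTCTTTCTTTCTCCagca
Rpl11: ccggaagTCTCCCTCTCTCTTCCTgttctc
Rpl22: ctgactcctccctTTCCCgacagccgactt
Rps15: gcagcccgtaCTTCCTTTTCCgagtaaccg
Rps27: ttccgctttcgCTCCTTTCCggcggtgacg
These windows lie at chr2:26910788-26910817 (plus strand) for Rpl7a, chr4:136053358-136053387 (minus strand) for Rpl11 and chr4:152325683-152325712 (plus strand) for Rpl22. Those of the small subunit lie at chr10:80292446-80292475 (plus strand) for Rps15 and chr3:90213632-90213661 (minus strand) for Rps27. Within the stretch searched, the runs span 21 bases in Rpl7a, 17 in Rpl11, 11 in Rps15, 9 in Rps27 and 5 in Rpl22. Counted from the start, their first base lies at -14 in Rpl7a, 14 in Rpl11, 26 in Rps15, -2 in Rps27 and -30 in Rpl22. A run that does not begin at the start need not be the TOP stretch of the message. A start was found for 38 members, and 29 of them (76.3%) had a run of at least 8 C or T in that stretch, against 32.3% of 27025 genes. By subunit it was 17 of 20 large and 12 of 18 small subunit genes. A C at the annotated start followed by 4 C or T occurred in 8 of the 38 (21.1%), against 3.01% of all genes. The letters CCGGAAG, on either strand and from 250 bases before to 50 after the start, occurred in 19 (50%), against 9.93%. A match describes the sequence and does not show that a factor binds there.

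The first question was whether 1 day of MPA moved the family. Most ribosomal protein genes were lower with MPA at day 6, and the bright ones were lower together. Of the 42 measured, 37 were below control, against 48.5% of all 12240 genes measured. Their median log2 difference was -0.27, against 0.016 for all genes. In all, 17 were at least 20% lower (22.5% of all genes were) and 3 were at least 25% higher (25.8% of all genes). Of the 8 measured members of the dim band, 3 were lower and 5 higher, with a median of 0.025. All 34 bright members were lower, with a median of -0.30, and for each of them the day 6 MPA array was the lowest of the 5. Among all 42 it was the lowest for 37, against 12.6% of the 14363 genes above the floor on any array. Among 28 other genes at least as bright as the dimmest bright member it was the lowest for 14. In a whole culture, fewer cells of a type and less RNA per cell cannot be told apart.

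This day 6 result depended on how the arrays were made comparable. Quantile normalization, which gives all arrays 1 distribution of signals, left a median of -0.034 with 25 of 42 members lower, and cyclic loess left -0.039 with 26 lower. Scaled to the 4 added cre hybridisation controls, whose signals lie in the same range as the bright members, the median was -0.23 with 36 lower. The cre controls themselves differed by a mean log2 of -0.041 between the MPA and control arrays of day 6. Set against the 28 other bright genes, the bright members were lower at day 6, with medians of -0.30 for the members and -0.16 for the other genes. That gap of -0.14 log2 was -0.16 under quantile normalization and -0.11 under cyclic loess. At day 8 the medians were -0.14 for the bright members and -0.022 for the other genes, a gap of -0.12 that was -0.11 under quantile normalization and -0.13 under cyclic loess. With each gene's second brightest probe set, which leaves fewer genes of both kinds, the gap was -0.065 at day 6 and 0.0063 at day 8, so at day 8 it turned direction. The other genes include Actb, Ldha, Pgk1 and Tuba1a, and they were chosen by signal after the values were seen. They also include Fau, the assembly gene Npm1 and the TOP genes Eef1a1, Naca, Pabpc1 and Tpt1, which belong to lists set beside the family below.

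**Figure D1:**
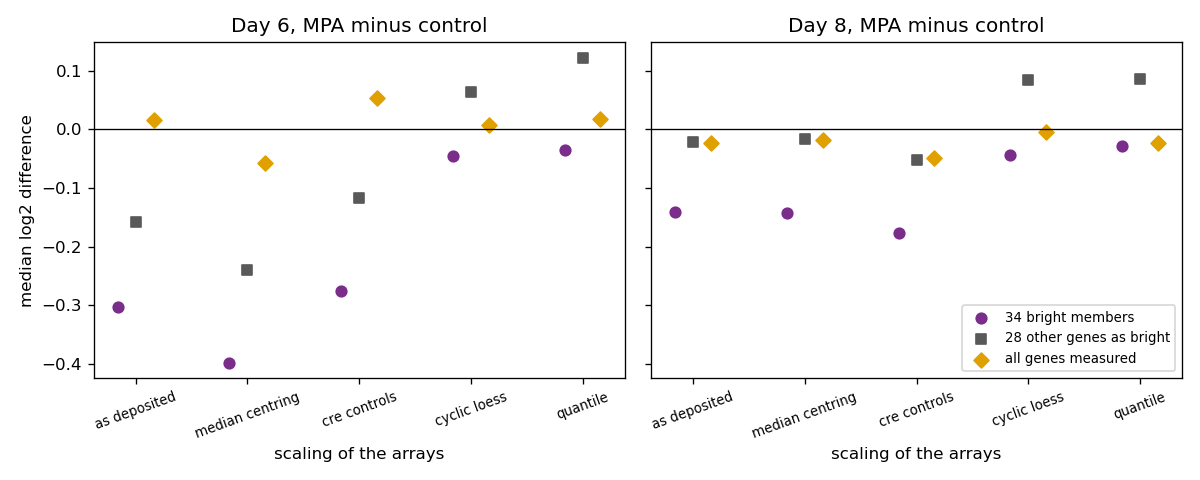
Median log2 difference of MPA minus control (vertical axis) at day 6 and day 8 under 5 ways of scaling the arrays (horizontal axis), for the 34 bright ribosomal protein genes (circles), 28 other genes as bright (squares) and all genes measured (diamonds). The members' median moves between -0.40 and -0.036 at day 6 and stays below that of the other bright genes in each setting.

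After 3 days of MPA the family was again lower than its control, and as deposited the difference was smaller than at day 6. At day 8, 39 of 42 members were below control, against 51.9% of 12599 genes. The median log2 difference was -0.15, against -0.023 for all genes, with 5 members at least 20% lower (24.4% of all genes) and 2 at least 25% higher (23% of all genes). Of the 34 bright members 33 were lower, with a median of -0.14, and Rps19 was the exception. For 33 of the 34 the difference at day 8 was smaller in size than at day 6, Rplp0 being the exception. Under quantile normalization the day 8 median was -0.036 with 31 of 42 lower, and scaled to the cre controls it was -0.18 with 39 lower. Cyclic loess gave -0.049 with 32 lower, and probe sets with plain _at names gave -0.24 with 17 of 21 lower. Under quantile normalization, cyclic loess and plain _at names the day 8 median was not smaller in size than that of day 6 (-0.034, -0.039 and -0.24).

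**Figure D2:**
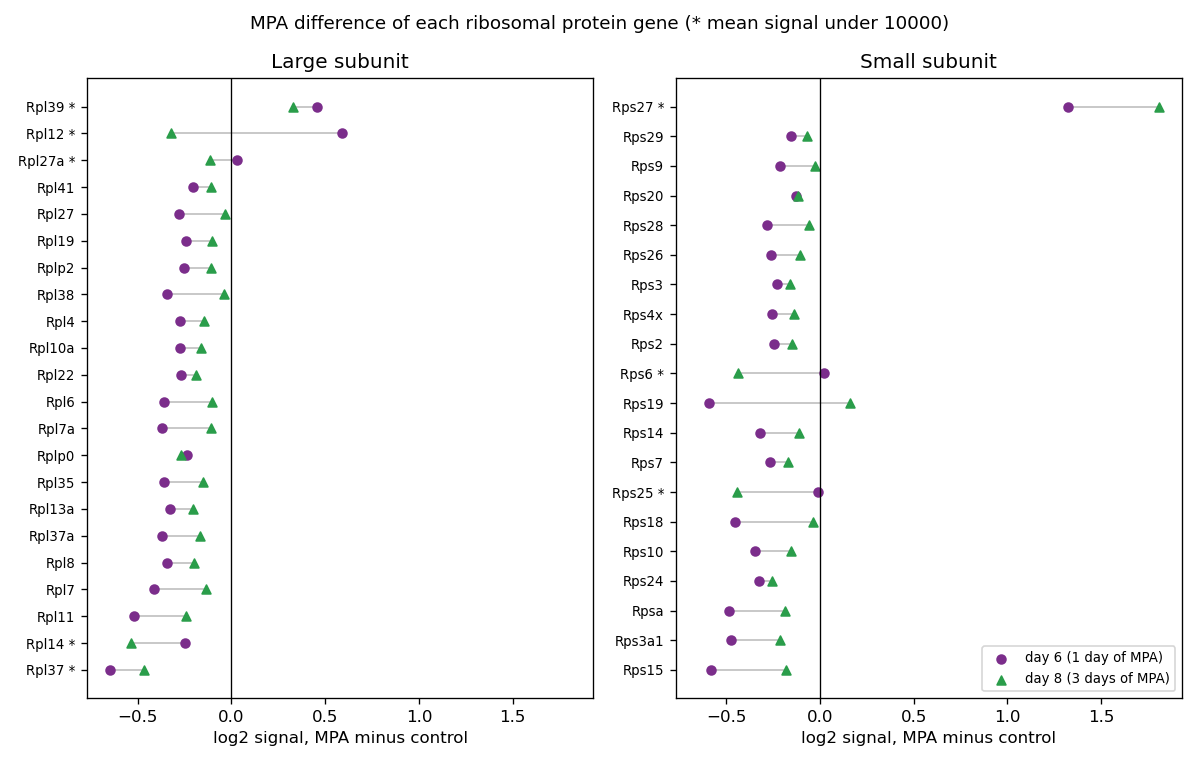
Log2 signal of MPA minus control (horizontal axis) for each member above the floor, at day 6 (circles) and day 8 (triangles), with large subunit genes on the left and small subunit genes on the right, ordered by the mean over both days. Asterisks mark the 8 genes with a mean signal under 10000. All unmarked genes lie left of 0 at day 6, and Rps19 alone among them lies right of 0 at day 8.

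Taking both days together, 36 of 42 members were below control at day 6 and again at day 8, against 25.8% of 11007 genes. In limma, fitted over the 4 arrays of both days for MPA and for day, 0 of 42 members passed a Benjamini-Hochberg adjusted p of 0.05, as did 1 of 11599 genes. At an unadjusted p under 0.05 the limma fit gave 8 members (19.0%), 7 of them lower, against 6.37% of genes. That excess was not there under quantile normalization or cyclic loess, each with 2 members (4.76%), or in a fit without trend and robust, with 1 member (2.38%), and scaling to the cre controls gave 15. This fit has 1 residual degree of freedom, and its error is the disagreement between the days, not between cultures. A further count, made only on the signals as deposited, asks for both MPA arrays below all 3 control arrays. That held for 17 of the 42 members, all bright ones, against 6.47% of all genes and 6 of the 28 other bright genes. It held for 11 of 17 bright large subunit genes and 6 of 17 bright small subunit genes. Both MPA arrays lay above all 3 controls for Rpl39 and Rps27, against 7.41% of genes.

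The large and the small subunit were close to each other in their response to MPA. At day 6 the median log2 difference was -0.28 for 22 large subunit genes and -0.26 for 20 small subunit genes. At day 8 it was -0.15 for large and -0.14 for small subunit genes. Among the bright members the medians were -0.33 (large) and -0.28 (small) at day 6, with interquartile ranges of -0.36 to -0.27 and -0.45 to -0.25 that overlap. Large subunit genes were more alike than small subunit genes at day 6, as these ranges show. Genes are not replicates, so no test of the subunits was made.

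**Figure D3:**
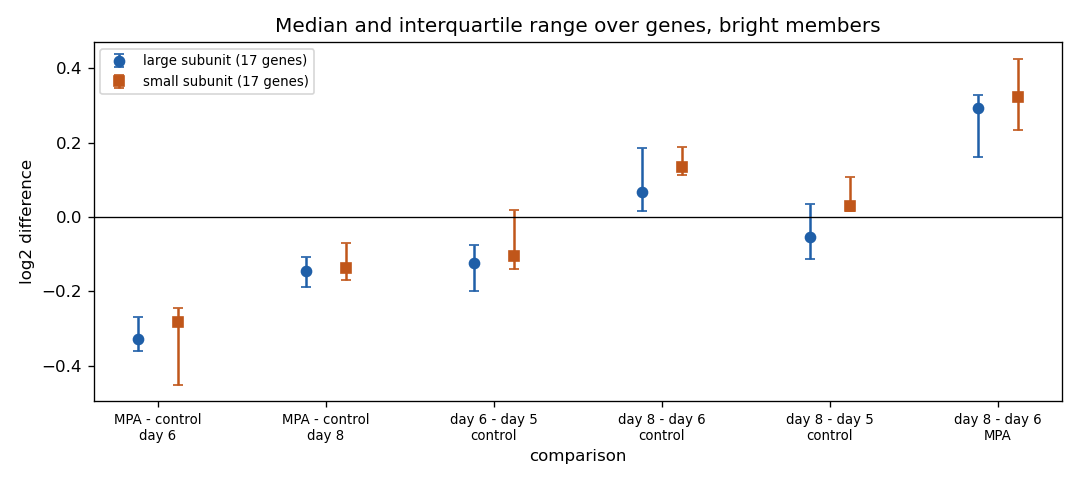
Median log2 difference (vertical axis) of 17 bright large subunit genes (circles) and 17 bright small subunit genes (squares) in 6 comparisons, with bars for the interquartile range over genes. The subunits overlap in both MPA comparisons and lie furthest apart for day 8 against day 5 in the controls, at -0.054 and 0.030.

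The stalk of the large subunit recruits the elongation factors that drive each step of translation. Rplp0, the stalk's base, had a signal of 66443 with MPA and 78366 in the control at day 6, 68035 with MPA and 82081 in the control at day 8, and 82576 at day 5. Both MPA arrays lay below all 3 controls, with log2 differences of -0.24 and -0.27, and Rplp0 differed from control as much at day 8 as at day 6. Its partner Rplp2 had 76680 with MPA and 91220 in the control at day 6, and 96199 with MPA and 103716 in the control at day 8, with 99446 at day 5. Rplp2 was lower at both days (-0.25 and -0.11), and its groups overlapped because the day 6 control lay under the day 8 MPA array.

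Rpl11 binds the ribosome's smallest large-subunit RNA together with Rpl5 and can hold Mdm2 when free. It was the bright large subunit gene furthest below control at day 6. Its signal was 38614 with MPA and 55279 in the control at day 6, 56192 with MPA and 66355 in the control at day 8, and 61096 at day 5. The log2 differences were -0.52 and -0.24 and the groups overlapped at day 8, where MPA lay just above the day 6 control. Over both days the mean was -0.38 with an SE of 0.13 in limma, with an adjusted p of 0.69. Rpl5 is not analysed here.

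Among proteins around the exit tunnel, Rpl4, Rpl19 and Rpl35 were lower at both days and Rpl39 was higher. Rpl4, which lines the tunnel, differed by -0.27 and -0.15, and Rpl19 by -0.24 and -0.10. Rpl35, which sits at the tunnel's mouth, had 60182 with MPA and 77244 in the control at day 6, and 79799 with MPA and 88476 in the control at day 8, with 88712 at day 5. For Rpl35 and Rpl4 the day 8 MPA array lay above the day 6 control, whereas both MPA arrays of Rpl19 lay below all controls. Rpl39, a small protein in the tunnel wall, was read by a dim probe set that had 239 with MPA and 174 in the control at day 6, 195 with MPA and 155 in the control at day 8, and 123 at day 5. Both MPA arrays were above all controls, at signals near the floor.

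Other large subunit genes of known further roles followed the family. Rpl13a, which in human cells can leave the ribosome to silence inflammatory messages, had 61676 with MPA and 77393 in the control at day 6, and 78555 with MPA and 90463 in the control at day 8, with 65032 at day 5. It was lower with MPA at both days (-0.33 and -0.20). With this probe set the control signals were higher at day 6 and day 8 than at day 5. Its other probe sets were lower in the control at day 6 than at day 5 (-0.36, -0.033 and -0.11). For day 8 against day 5 they gave -0.28, 0.26 and 0.12. Rpl38, which mouse embryos need for translating a set of Hox messages, differed by -0.34 at day 6 and -0.037 at day 8. Rpl22, whose loss cells can make good with its paralog Rpl22l1, had 55347 with MPA and 66755 in the control at day 6, and 59234 with MPA and 67456 in the control at day 8, with 71974 at day 5. Its groups did not overlap. Rpl22l1 itself, outside the rule, had a signal of 12237 with MPA and 27047 in the control at day 6, and 34782 with MPA and 36190 in the control at day 8. It was thus 2.21-fold lower after 1 day, which 3.15% of all genes were by at least 2-fold, and 1.04-fold lower after 3 days.

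The head of the small subunit swivels as the messenger RNA moves. All 9 of its measured members were lower at day 6 and 8 of 9 at day 8. Of all genes, 48.5% and 51.9% were lower. Rps15, which lies near the decoding site, had 36528 with MPA and 54593 in the control at day 6, and 53716 with MPA and 60858 in the control at day 8, with 52122 at day 5. Its day 6 MPA array stood well below the other 4, which overlapped between groups. Rps19, the gene most often mutated in human Diamond-Blackfan anaemia, had 63255 with MPA and 95108 in the control at day 6, 89903 with MPA and 80481 in the control at day 8, and 90193 at day 5. It was the bright member furthest below control at day 6 (-0.59) and the one above control at day 8 (0.16). Rps18 differed by -0.45 and -0.037, Rps20 by -0.13 and -0.12, and Rps29, whose zinc-binding protein lies by the messenger RNA, by -0.15 and -0.069.

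In the body of the small subunit, 9 of 11 measured members were lower at day 6 and 10 of 11 at day 8. The shares of all genes were 48.5% and 51.9%. Rpsa, which was first described as a laminin receptor, had 63243 with MPA and 88363 in the control at day 6, and 88988 with MPA and 101110 in the control at day 8, with 99057 at day 5. Its log2 differences were -0.48 and -0.18, and the day 8 MPA array lay within the range of the controls. Rps3a1 was close to Rpsa, with -0.47 and -0.21. Rps24, another Diamond-Blackfan gene, had 49640 with MPA and 62144 in the control at day 6, and 58419 with MPA and 69748 in the control at day 8, with 68511 at day 5. Its groups did not overlap, and its day 8 difference of -0.26 was the largest of the bright small subunit genes.

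Rps3, at the entry of the messenger RNA channel and also known in DNA repair, differed by -0.23 and -0.16, and the X-linked Rps4x by -0.25 and -0.14. Both MPA arrays of each lay below all controls. Rps14, which in humans is lost in a blood disorder with a deleted chromosome arm, differed by -0.32 and -0.11. Rps9, which bears on decoding accuracy in yeast, differed by -0.21 and -0.023. The 11 measured Diamond-Blackfan genes as a list had medians of -0.28 at day 6 and -0.11 at day 8, close to those of all members (-0.27 and -0.15). The members of that list furthest from its median were Rps19 and Rps27.

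**Figure D4:**
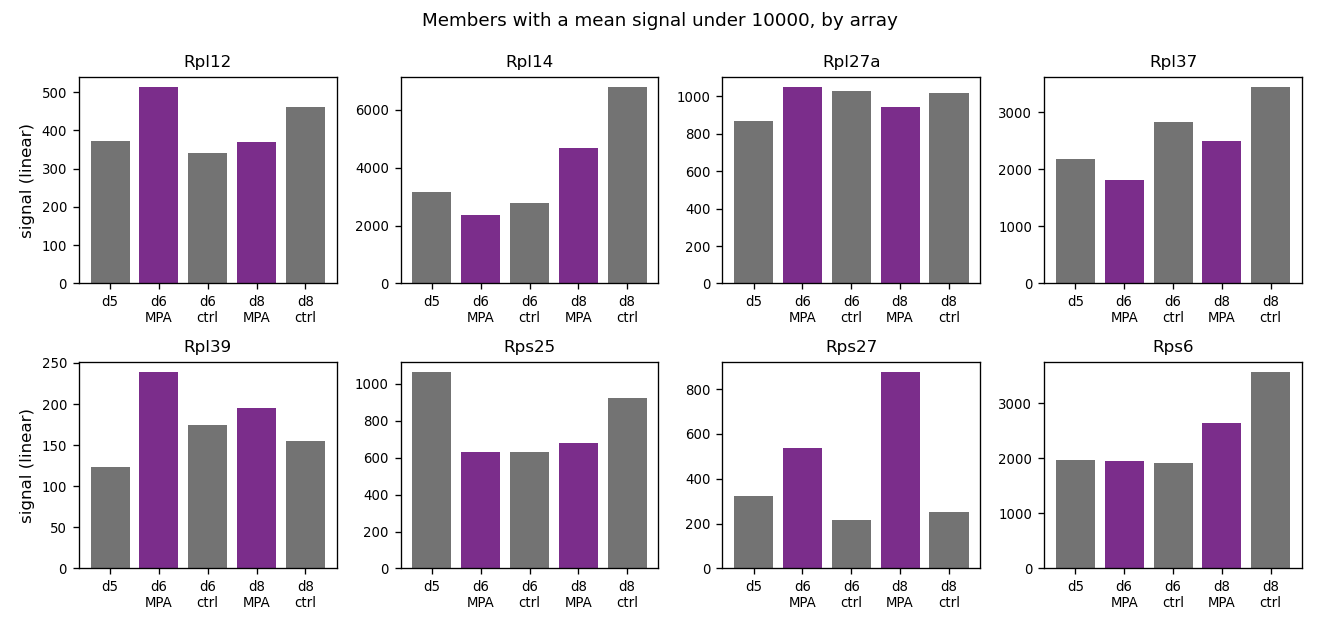
Signal (vertical axis, linear, a separate scale per gene) of the 8 measured members with a mean signal under 10000 on each array, with MPA arrays in purple and controls in grey. Rps27 and Rpl39 are highest on the MPA arrays, Rpl37 is lowest on the day 6 MPA array, and Rpl14 and Rps6 are highest in the day 8 control.

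The 8 dim members did not move as one. Rps27, a zinc-finger protein of the small subunit body, had 537 with MPA and 215 in the control at day 6, 876 with MPA and 250 in the control at day 8, and 321 at day 5. Both MPA arrays were above all controls, by 2.5-fold at day 6 and 3.5-fold at day 8, and it was the one member 2-fold apart in either MPA comparison (7.17% of all genes at day 6 and 6.91% at day 8). Its mean log2 difference over both days was 1.56 with an SE of 0.35 in limma, with an unadjusted p of 0.0018 and an adjusted p of 0.49. Its paralog Rps27l, outside the rule, had 30668 with MPA and 25773 in the control at day 6, and 18163 with MPA and 18518 in the control at day 8.

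Rpl37, which is among the large subunit proteins known to bind Mdm2, was furthest below control over both days. It had 1812 with MPA and 2835 in the control at day 6, and 2494 with MPA and 3446 in the control at day 8, with 2181 at day 5. Its differences were -0.65 and -0.47, and its groups overlapped through the day 5 array. Rpl14 differed by -0.25 at day 6 and by -0.53 at day 8, and its control signal was 6788 at day 8, against 2797 at day 6. Rps6, the substrate of the S6 kinases, had 1946 with MPA and 1919 in the control at day 6, and 2642 with MPA and 3568 in the control at day 8. Rps25, a head protein used by some viral messages, likewise differed from control at day 8 (-0.44), with -0.0093 at day 6. Rpl27a differed by 0.030 and -0.11. Rpl12, next to the stalk's base, was above control at day 6 (0.59) and below it at day 8 (-0.32).

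Probe sets that were not used for the members gave a further reading of the same RNA. Of 42 other probe sets above the floor on all arrays, from 18 members, 35 went the same way as the one used at day 6 and 39 did at day 8, with medians of -0.30 and -0.18. At day 6, 4 of them (of Rpl37a, Rpl41 and Rps9) went the other way and were at least 25% higher. Probe sets that carry a ribosomal protein symbol beside another symbol were left out by the rule. There were 110 of them with 42 such symbols, 27 of these not members. Of those measured, 89 of 102 were lower with MPA at day 6 and 98 of 105 at day 8, with medians of -0.28 and -0.20. Among all genes, 48.5% and 51.9% were lower.

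In cells without MPA the family was slightly lower at day 6 than at day 5 and slightly higher at day 8 than at day 6, as deposited. The median log2 difference was -0.11 for day 6 against day 5, with 32 of 42 lower (48.4% of all genes), and 0.13 for day 8 against day 6, with 8 lower (48.7% of all genes). These comparisons share the day 6 control array, which was the lowest of the 3 controls for 24 of the 34 bright members. For day 8 against day 5 the median was 0.027, with 18 of 42 lower (47.4% of all genes). Under quantile normalization the 3 medians were 0.013, 0.0041 and 0.014, and under cyclic loess -0.10, 0.27 and 0.17. Scaled to the cre controls, all genes shifted, to medians of -0.18, -0.14 and -0.32, and the members' medians were -0.32, -0.057 and -0.37. Relative to all genes under that scaling, the members stood at -0.14, 0.082 and -0.047.

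Between day 5 and day 8 the subunits parted slightly in the controls. Of 17 bright large subunit genes 12 were lower at day 8, with a median of -0.054. Of 17 bright small subunit genes 4 were lower, with a median of 0.030, and 47.4% of all genes were. The summed signal of the large subunit members divided by that of the small ones was 1.01 with MPA at day 6 and 0.956 with MPA at day 8. In the controls it was 1.03 at day 5, 0.997 at day 6 and 0.976 at day 8. This ratio is taken within an array and does not depend on a common scaling factor. Large subunit genes did not move alike. Rpl41, the smallest ribosomal protein, had 132262 in the control at day 8 and 152010 at day 5, and Rpl27 had 49164 at day 8 and 62784 at day 5. Rpl13a went the other way, with 90463 at day 8 and 65032 at day 5. For each of these genes the other probe sets went both ways. Their log2 differences were 0.12, -0.36 and -0.34 for Rpl41 and 0.22 and -0.047 for Rpl27. For Rpl13a they were -0.28, 0.26 and 0.12. With only probe sets of plain _at names the median of large minus small for day 8 against day 5 was 0.079, where it was -0.035 over all members.

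With MPA, day 8 was above day 6. The median log2 difference was 0.30, 3 of 42 members were lower (52.3% of all genes), and none of the 34 bright members was. Set as a percentage of day 5, the median bright large subunit gene stood at 73.5% with MPA and 91.7% in the control at day 6, and at 85.8% with MPA and 96.3% in the control at day 8. The median bright small subunit gene stood at 74.6% with MPA and 93.0% in the control at day 6, and at 98.6% with MPA and 102.1% in the control at day 8. Under quantile normalization the median of day 8 against day 6 with MPA was 0.0066, and scaled to the cre controls it was 0.042, where that of all genes was -0.26. The cre controls were higher at day 8 than at day 6 with MPA by a mean log2 of 0.25.

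**Figure D5:**
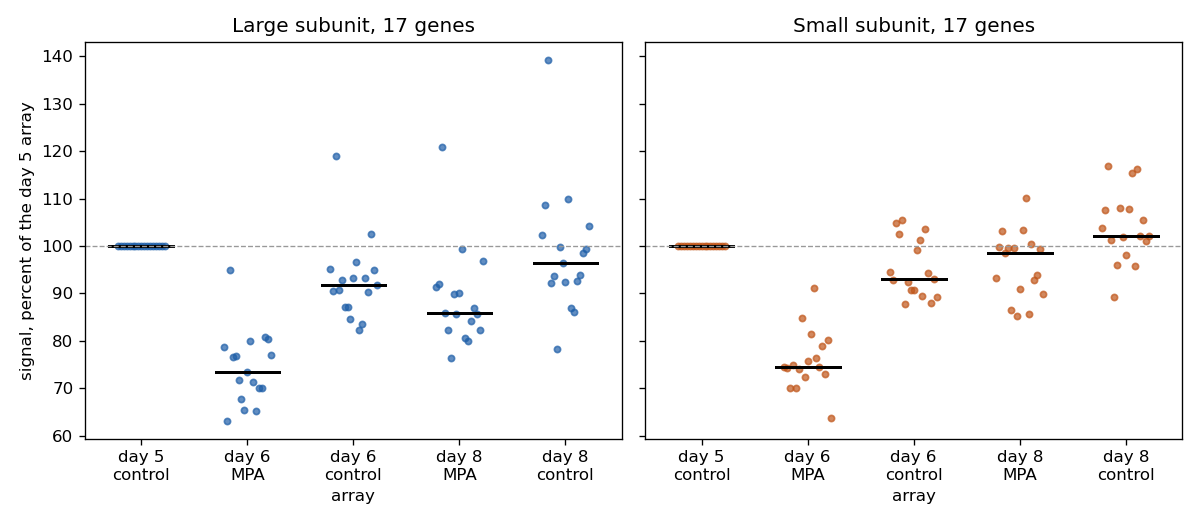
Signal of each bright member as a percentage of its day 5 signal (vertical axis) on each array (horizontal axis), with 17 large subunit genes on the left and 17 small subunit genes on the right. Points are genes and black bars are medians. The day 6 MPA array holds the lowest median of both subunits, at 73.5% and 74.6%.

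Other genes of ribosome making and use were set beside the family. Of 17 other measured genes with TOP messages, 14 were lower at day 6 and 14 at day 8, where 48.5% and 51.9% of all genes were. The medians of these TOP genes were -0.20 and -0.067. Among them Eif4b, an initiation factor that S6 kinase phosphorylates, had a signal of 8776 with MPA and 14687 in the control at day 6, and was 1.67-fold lower. Btf3, which works with Naca at the tunnel exit, was 1.61-fold lower at day 6, whereas Vim, an intermediate filament gene, was 1.36-fold higher at day 8. Fau, which makes a small subunit protein fused to a ubiquitin-like one, differed by -0.47 and -0.074.

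Of 29 measured ribosome assembly genes, 14 were lower at day 6 (median 0.10), near the 48.5% of all genes. At day 8, 25 were lower (median -0.49), against 51.9% of all genes, and 19 were at least 20% lower. The ribosomal protein genes at day 8 had 5 of 42 lower by that much, against 24.4% of all genes. These were 5 of the 8 dim members, whose median was -0.38, and 0 of the 34 bright ones. Rrp9, a protein of the small nucleolar particle that processes ribosomal RNA, lay under the floor with MPA and had 248 in the control at day 8, so it was at least 2.86-fold lower. Polr1b, the second-largest RNA polymerase I subunit, was 2.07-fold lower at day 8. Mitochondrial ribosomal protein genes had medians of 0.033 at day 6 (33 of 76 lower) and -0.21 at day 8 (67 of 76 lower). Initiation factors had medians of -0.15 (26 of 39 lower) and -0.14 (31 of 39 lower).

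Of the genes around p53, Cdkn1a, a p53 target that blocks the cell cycle, had 4797 with MPA and 2191 in the control at day 6. At day 8 Cdkn1a had 6169 with MPA and 2711 in the control. Mdm2 had 2106 with MPA and 1109 in the control at day 6, and 1530 with MPA and 1463 in the control at day 8. Among regulators of TOP translation, Eif4ebp1, a repressor that mTOR switches off, was 1.70-fold lower at day 6 and 1.07-fold higher at day 8, and 4 of the 8 genes on that list were lower at day 6 and 6 at day 8, where 48.5% and 51.9% of all genes were.

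Several other measures moved with MPA, and their part in these results was not tested. The summed signal of 6 neural markers was 641 with MPA and 2141 in the control at day 6, and 1159 with MPA and 9807 in the control at day 8. That of 5 pluripotency markers was 2611 with MPA and 4468 in the control at day 6, and 2788 with MPA and 5132 in the control at day 8. Sox2, which neural progenitors also express, made up most of the day 8 sums, with 2396 with MPA and 4784 in the control, while Nanog lay under the floor on both arrays of day 8. That of 6 endoderm markers was 18460 with MPA and 11187 in the control at day 6, and 18201 with MPA and 10997 in the control at day 8. Its members did not move alike at day 8, where Foxa1 had 9593 with MPA and 4339 in the control and Sox17 had 485 with MPA and 1550 in the control. Cxcr4 lay under the floor with MPA at day 8 and had 457 in the control. The summed signal of the 6 pancreas markers was 524 with MPA and 183 in the control at day 6. At day 8 it was 4186 with MPA, most of it from Gcg and Neurog3, and 776 in the control. Blood markers lay under the floor on all 4 arrays of day 6 and day 8. The ratio of the 3′ to the 5′ Gapdh probe set, which grows as RNA breaks down, was 1.31 with MPA and 1.19 in the control at day 6, and 1.57 with MPA and 1.55 in the control at day 8, with 1.08 at day 5. The same ratio for beta-actin was 3.06 with MPA and 3.04 in the control at day 6. At day 8 it went the other way, with 2.71 with MPA and 2.81 in the control, and it was 2.08 at day 5.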

How the data were processed

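The deposited values are intensities on a linear scale, 1 for each probe set in each of 5 samples, and the authors made them with MAS5 per the submitters' processing notes. Its version is not given in the sources used here. Of 45101 probe sets, 64 were controls, 34945 carried 1 gene symbol in the platform annotation, 932 several and 9160 none. Values under the floor were raised to it, and log2 differences were taken between arrays. A gene was counted as measured if either array of a comparison exceeded the floor. The number of arrays limits the precision, and p-values measure only the spread between these samples, which may be technical. The fit over both days used limma 3.58.1 (R 4.3.3, lmFit and eBayes with trend and robust) on genes that exceeded the floor in 2 or more of the 4 arrays, and was tested on simulated data. The other steps used Python 3.11.15, numpy 2.4.6 and pandas 2.3.3. The members, lists and tests were chosen with earlier results of these data known. Members were named by function, by rank (the 3 highest and 3 lowest of a subunit), or for a 2-fold difference, and list genes were the 3 with the largest mean MPA difference. Rpl4, Rpl19, Rpl35 and Rps18 were named for their place in the ribosome. Alternatives were other normalizations, floors, log scales and probe set choices. The cre scaling, the limit of 10000 and the comparison with bright genes were added after the data were seen.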

Additional observations from a re-analysis of the deposited data

Results flagged for a closer look

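Rpl12 and the assembly gene Bop1 differed from control in opposite directions at the days. Rpl12 had a log2 difference of 0.59 at day 6 (513 with MPA, 341 in the control) and -0.32 at day 8 (370 with MPA, 462 in the control). Bop1, which works in making the large subunit, had 1.58 at day 6 (589 with MPA, 197 in the control) and -0.55 at day 8 (374 with MPA, 546 in the control). The difference between the days was not tested, since each day has 1 array per group.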

How the results depend on the processing

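The limma fit sets MPA against control within each day, over 2 pairs of arrays, and without its day term 0 members passed as well. Leaving out an array leaves no residual degree of freedom. The medians over all members of both MPA comparisons stayed below 0 in each alternative run, and limma called 0 members in each. Quantile normalization gave medians of -0.034 (day 6) and -0.036 (day 8) for MPA. It gave 0.013 for day 6 against 5 (large 0.00705, small 0.013, 45.2% lower), 0.0041 for day 8 against 6 (50% lower) and 0.0066 for the MPA time course (large -0.037, 45.2% lower). Cyclic loess gave -0.039 for MPA at day 6, 0.27 (9.52% lower) for day 8 against 6 and 0.17 (16.3% lower) for day 8 against 5. Scaling to the cre controls gave -0.32 for day 6 against 5, -0.057 (small -0.035, 61.9% lower) for day 8 against 6, -0.37 (90.7% lower; Rpl39 -0.066) for day 8 against 5 and 0.042 (40.5% lower) for the MPA time course. Median centring left 66.7% lower for day 8 against 5. With plain _at probe sets 57.9% of members were lower with MPA at day 6, where Rps10 was 0.24. Large minus small was then 0.24 for day 6 against 5, 0.079 for day 8 against 5 and -0.28 for the MPA time course, whose median was 0.13 (30% lower). The mean over probe sets gave 0.028 for Rpl37a at day 6, 0.076 for Rps6 at day 8 and 14.3% lower in the MPA time course, which was 0% with bright members only. The second brightest probe set gave 0.0086 for Rpsa at day 6 (-0.0086 in the MPA time course), 0.59 for Rps6 at day 8, -0.28 for Rpl13a and 0.22 for Rpl27 from day 5 to 8, and 11.1% lower for day 8 against 6. The like genes had day 6 medians of 0.0754, 0.051 and 0.33 under quantile normalization, cyclic loess and plain _at probe sets. The causes were not tested. Signals near the floor limit Rpl39, and low signals limit Rpl12 and Rps27, which lay above the floor on all 5 arrays.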
